A study of Homo sapiens with 6 samples.

Results

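LNCaP prostate cancer cells given dihydrotestosterone (DHT, a potent androgen) were compared with LNCaP cells given bicalutamide (an antiandrogen), 1 library against 1, which are 2 of the 6 libraries sequenced. LNCaP is an established, androgen-responsive human line from a lymph node metastasis. After 3 days in phenol red-free medium with 2.5% charcoal-stripped serum, cells received 10 nM DHT for 24 h or, without added androgen, 1 µM bicalutamide for 24 h. The same pair of treatments in the second line of the series, BicR, which the labels describe only as prostate cancer, served for comparison. All 6 libraries, ethanol (vehicle) and BicR included, entered the gene filter and the scaling of library sizes. Beyond that, the LNCaP ethanol library was used only where stated. Neither treatment had a second library, and the labels do not say how many cultures stood behind each, so differences within LNCaP have no replicate check and carry no p-value.

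As background, the androgen receptor is a ligand-activated transcription factor. DHT binding moves it to the nucleus, where it binds androgen response elements and raises transcription of genes such as those of secreted kallikreins and membrane proteins of the prostate luminal epithelium, while a smaller set of genes is repressed. Bicalutamide occupies the same pocket and holds the receptor in a form that activates poorly. The pair of treatments therefore contrasts an occupied, active receptor with an occupied, blocked one.

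The DHT library held 55917016 counts in genes and the bicalutamide library 50871634, within the series' range of 42162723 to 55917016. Of 21512 genes in the table, the 13885 averaging 20 or more counts over all 6 libraries were tested. Levels are CPM (counts relative to a library size scaled by the trimmed mean of M values, TMM), and a difference is log2(CPM + 1) under DHT minus that under bicalutamide. The added 1 shrinks differences of genes with low levels. A difference of 1 or more counts as 2-fold. Bracketed 95% intervals on ratios cover counting error only.

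Both libraries held counts of luminal prostate markers. Summed over the luminal list, of which 27 of 28 genes in the table had counts, the level was 14394 CPM under DHT and 8234 CPM under bicalutamide, with TGM4 at 0 in both. The immune list summed to 73.5 CPM under DHT and 67.2 CPM under bicalutamide, with 7 of 22 markers at 0 in both, PTPRC and CD3E among them. The endothelial list summed to 11.0 CPM under DHT and 8.17 CPM under bicalutamide. Of its 13 markers 2, CDH5 and CLDN5, were at 0 in both libraries, while VWF had 443 counts under DHT and 267 under bicalutamide. Of 24 mesenchymal markers 5 were at 0 in both, PDGFRA and COL1A2 among them, while FN1 had 106852 counts under DHT and 116159 under bicalutamide. Basal markers summed to 271 CPM under DHT and 403 CPM under bicalutamide, neuroendocrine markers to 159 CPM under DHT and 196 CPM under bicalutamide, and mesenchymal markers to 2572 CPM under DHT and 2653 CPM under bicalutamide. Of 18 basal markers 0 were at 0 in both libraries, and of 20 neuroendocrine markers 3 were. Having counts therefore does not set the luminal list apart from the basal one. In bulk RNA, fewer cells of a type and less RNA per cell cannot be told apart.

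The bicalutamide library stood closer to BicR than the other LNCaP libraries did. Across genes its log2(CPM + 1) values had a Pearson correlation of 0.986 with BicR bicalutamide and 0.981 with LNCaP DHT. Of 13 genes that separated the BicR libraries from LNCaP DHT and LNCaP ethanol by at least 2 on the log2 scale in either direction, it lay on the LNCaP side for 12, the exception being PCSK1N.

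DHT and bicalutamide separated the classical androgen-induced genes in LNCaP by as much as 68.8-fold, the ratio for STEAP4. In all, 219 genes reached 2-fold higher levels under DHT (1.58% of those tested) and 124 reached 2-fold lower levels (0.893%). With library sizes taken from total counts alone the split turned round, to 158 higher and 185 lower, although the median of all genes moved by only -0.07. The boundary fell in a dense part of the distribution, with 78 genes between 1 and 1.1 and 95 between 0.9 and 1 on the higher side. CCDC74B at 1.001 was just inside and TRPT1 at 0.997 just outside.

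The secreted kallikrein proteases led the response in abundance. KLK3, which encodes prostate-specific antigen, had 285461 counts (5259 CPM) under DHT and 51096 counts (979.5 CPM) under bicalutamide, a ratio of 5.37 [5.32 to 5.42]. That single gene took 0.511% of all counts under DHT and 0.1004% under bicalutamide. KLK2, a protease that activates the KLK3 product, had 34551 counts under DHT and 4605 under bicalutamide, a ratio of 7.21 [6.99 to 7.44]. Their neighbours in the kallikrein cluster moved less: KLK4 had 8880 counts under DHT and 2998 under bicalutamide, and KLK15 had 564 under DHT and 143 under bicalutamide. KLK1 had 46 counts under DHT and 16 under bicalutamide, a difference of 0.50 that did not reach 2-fold. KLK2 and KLK3 are close paralogs, so reads of one may have been counted in the other.

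The promoters of these paralogs are shown because both hold a similar stretch close to a known receptor motif and both genes stood high under DHT. The search used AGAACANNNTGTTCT, a palindrome and so the same on both strands, allowing 3 mismatches at its 12 defined letters, in RefSeq promoters from 250 bases before to 50 after the gene start (GRCh38.p14). The KLK3 window is chr19:50854665-50854964, plus strand, with the match starting 170 bases before the start and holding 2 mismatches. The KLK2 window is chr19:50873189-50873488, plus strand, with the match 176 bases before the start and 3 mismatches. Capitals mark the match.
KLK3: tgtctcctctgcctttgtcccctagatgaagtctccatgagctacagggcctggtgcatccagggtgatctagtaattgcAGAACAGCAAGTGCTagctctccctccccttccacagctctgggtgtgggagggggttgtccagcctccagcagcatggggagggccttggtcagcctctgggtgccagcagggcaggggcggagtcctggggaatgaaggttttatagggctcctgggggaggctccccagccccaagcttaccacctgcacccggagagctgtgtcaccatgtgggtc
KLK2: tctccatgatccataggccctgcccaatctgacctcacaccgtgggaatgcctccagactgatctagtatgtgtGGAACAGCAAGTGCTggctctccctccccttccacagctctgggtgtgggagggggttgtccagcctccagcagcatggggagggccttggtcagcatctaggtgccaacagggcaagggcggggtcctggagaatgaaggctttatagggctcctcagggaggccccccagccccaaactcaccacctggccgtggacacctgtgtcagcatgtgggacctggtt
The windows were identical at 84.2% of 291 aligned bases. A match also occurred in the promoters of FKBP5, TRPM8, NCOA4, PART1 and STK39, so that 7 of the 67 androgen-induced genes with a promoter in the table (10.4%) had one, against 5.73% of the promoters of genes tested and 11.0% of all promoters in the table. The share among androgen-induced genes thus lay between those backgrounds, and a match is only a description of these letters.

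**Figure D1:**
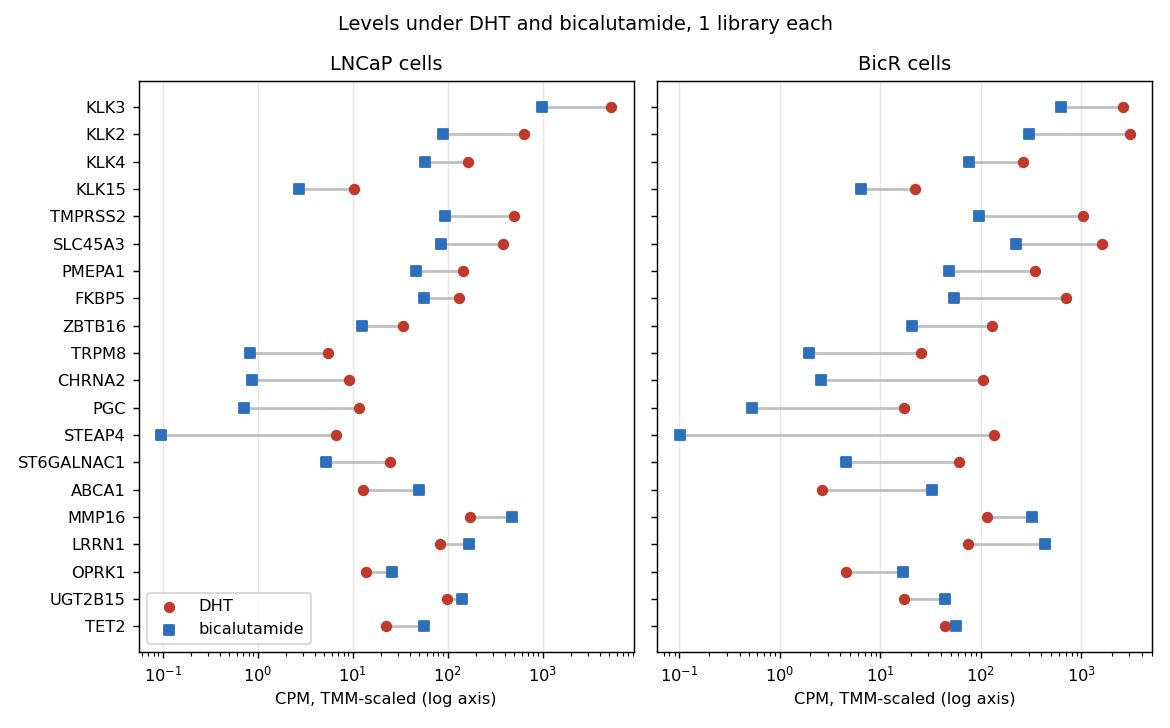
Levels of 20 genes in CPM (TMM-scaled, log axis) under DHT (red circles) and bicalutamide (blue squares) in LNCaP on the left and BicR on the right, 1 library per point. The first 14 genes are higher under DHT and the last 6 lower in both lines, with STEAP4 the widest gap in each.

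Several membrane proteins and enzymes had very low levels under bicalutamide and large ratios. STEAP4, a metalloreductase, had 358 counts under DHT and 5 under bicalutamide, a ratio of 68.8 [29.2 to 213]. PGC, which encodes the pepsin precursor progastricsin, had 636 counts under DHT and 37 under bicalutamide, a ratio of 16.5 [11.9 to 23.7], and had the largest difference of any gene, 2.90. CHRNA2, a nicotinic acetylcholine receptor subunit, had 494 counts under DHT and 45 under bicalutamide, a ratio of 10.6 [7.77 to 14.7]. These genes were at low levels under both treatments: their DHT levels were 6.60, 11.7 and 9.10 CPM. SLC2A3, a glucose transporter, had 28 counts under DHT and 1 under bicalutamide, a ratio of 26.9 [4.45 to 1100.3]. The tubulin TUBA3E had 112 counts under DHT and 6 under bicalutamide, a ratio of 17.9 [7.99 to 49.9]. Its near-identical copy TUBA3D had 158 under DHT and 12 under bicalutamide, a ratio of 12.7 [7.04 to 25.01], and the reads of the pair may be split uncertainly. TARP, a transcript inside the T cell receptor gamma locus, had 334 counts under DHT and 35 under bicalutamide. TRPM8, a cold-sensing cation channel, had 298 counts under DHT and 43 under bicalutamide. CCDC141 had 28 counts under DHT and 0 under bicalutamide. Against a floor of 3 counts in the bicalutamide library this is 8.97-fold higher, and the counting interval of the ratio starts at 6.82. CCDC141 and SLC2A3 passed the gene filter only through the BicR DHT library, where they had 588 and 309 counts.

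More abundant membrane and regulatory genes had smaller ratios. TMPRSS2, a membrane serine protease, had 26848 counts under DHT and 4850 under bicalutamide, a ratio of 5.32 [5.16 to 5.49]. SLC45A3, a transporter family member known as prostein, had 20869 counts under DHT and 4436 under bicalutamide, and ST6GALNAC1, a sialyltransferase, 1333 under DHT and 275 under bicalutamide. FKBP5, a co-chaperone of steroid receptors, had 7151 counts under DHT and 2956 under bicalutamide, a difference of 1.20, against 3.69 in BicR. PMEPA1, an inhibitor of TGF-beta signalling, had 7869 counts under DHT and 2397 under bicalutamide, and ZBTB16, a zinc finger repressor, 1826 under DHT and 648 under bicalutamide. CENPN, a centromere protein gene, had 3785 counts under DHT and 729 under bicalutamide.

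Of 90 androgen-induced genes listed, 88 were tested and 72 lay above 0. At least 2-fold higher were 24 of them, against 1.58% of all genes tested, and 0 were 2-fold lower. The median difference was 0.57, against -0.01 for all genes tested. This list and those below were drawn up with earlier results of these data known, so their counts and medians are not independent evidence of direction. The 16 members below 0 included LIFR, a cytokine receptor, with 2424 counts under DHT and 4180 under bicalutamide, and TIPARP, an ADP-ribosyltransferase, with 544 under DHT and 845 under bicalutamide. LIFR differed by -0.83 in LNCaP and 1.82 in BicR. NDRG1, a stress-responsive gene, and CAMKK2, a calcium-dependent kinase, stayed under 2-fold at 0.63 and 0.44. ODC1, the first enzyme of polyamine synthesis, was 539 CPM under DHT and 535 CPM under bicalutamide, a difference of 0.01, against 1.21 in BicR.

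Targets shared with the glucocorticoid receptor had 4 of 18 members 2-fold higher, ZBTB16, FKBP5 and the metallothioneins MT2A and MT1F, with a median of 0.71. MT2A, a metal-binding protein, had 8280 counts under DHT and 2705 under bicalutamide but differed by 0.15 in BicR. Of 25 luminal genes 8 were 2-fold higher, with a median of 0.55. KLK2, KLK3, TMPRSS2 and SLC45A3 stand on both this list and the androgen-induced one, so the lists share members. Polyamine genes (16 tested), cholesterol synthesis (27), fatty acid synthesis (22) and mitosis (55) had 0 members at 2-fold in either direction. With 1.58% of all genes tested 2-fold higher and 0.893% lower, counts of 0 in lists of these sizes do not set them apart.

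Genes lower under DHT included ABCA1, the cholesterol efflux transporter, at 703 counts under DHT and 2572 under bicalutamide, a ratio of 0.263 [0.241 to 0.286]. NIPSNAP3A and NIPSNAP3B, of the NIPSNAP protein family, its successive neighbours on chromosome 9, lay on the same side. NIPSNAP3B had 89 counts under DHT and 227 under bicalutamide, a difference of -1.02, and NIPSNAP3A had 4211 under DHT and 7493 under bicalutamide, a difference of -0.88. In BicR the differences of ABCA1, NIPSNAP3B and NIPSNAP3A were -3.21, -1.18 and -2.19. All 3 neighbours were thus lower under DHT in both lines. MMP16, a membrane-anchored metalloproteinase, had 9423 counts under DHT and 24601 under bicalutamide, and LRRN1, a neuronal leucine-rich repeat protein gene, 4489 under DHT and 8824 under bicalutamide.

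Of 42 genes listed as androgen-repressed, 5 were 2-fold lower (ABCA1, TET2, MAN1A1, LRRN1 and SESN3) and 0 higher, with a median of -0.35. Of all genes tested 0.893% were 2-fold lower. TET2, a DNA demethylating dioxygenase, had 1231 counts under DHT and 2930 under bicalutamide, a difference of -1.27, and its gene model of 15006 bases is among the long ones taken up below. OPRK1, an opioid receptor, had 749 counts under DHT and 1363 under bicalutamide, and UGT2B15, an androgen-glucuronidating enzyme, 5344 under DHT and 7296 under bicalutamide. UGT2B17, its close paralog, had 94 counts under DHT and 72 under bicalutamide and an interval of the ratio that included 1 [0.913 to 1.73]. MYC, placed on the list as a repressed gene, was instead 1.48-fold higher, with 20998 counts under DHT and 13662 under bicalutamide.

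The difference between the libraries followed gene length in LNCaP. Gene lengths were recovered from the ratio of counts to RPKM. Across the 13885 genes, Spearman's correlation of the difference with length was -0.564, a description over genes of 1 pair of libraries. The median difference was 0.38 in the shortest decile (53 to 1213 bases) and -0.43 in the longest (6601 to 111970 bases). Genes over 10 kb numbered 336, of which 313 lay below 0, against 7043 of all 13885. Of these long genes 54 were 2-fold lower and 2 were 2-fold higher, against 0.893% and 1.58% of all genes tested. In BicR the decile medians ran only between -0.02 and 0.05, and the correlation was -0.07. Genes 2-fold higher had a median length of 1123 bases and those 2-fold lower 9028 bases, against 2937 bases for all genes tested.

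A similar slope was present on base composition. GC content was taken from the longest GENCODE 29 transcript, which matched 11988 of the 13885 genes (86.3%). The difference correlated with GC content at 0.595 (Spearman), and at 0.596 after the length trend was removed. Median differences were -0.36 in the decile of lowest GC (29.6 to 38.6%) and 0.41 in that of highest GC (61.7 to 74.7%). In BicR the same deciles had medians of 0.03 and -0.08, and the correlation was -0.16. Against the LNCaP ethanol library, shared by both comparisons, the difference of the DHT library correlated with GC at 0.13 and that of the bicalutamide library at -0.52. With length the correlations were -0.26 for DHT and 0.37 for bicalutamide. Each of these comparisons rests on single libraries, and whether treatment, culture or library preparation goes with the slopes cannot be told apart.

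**Figure D2:**
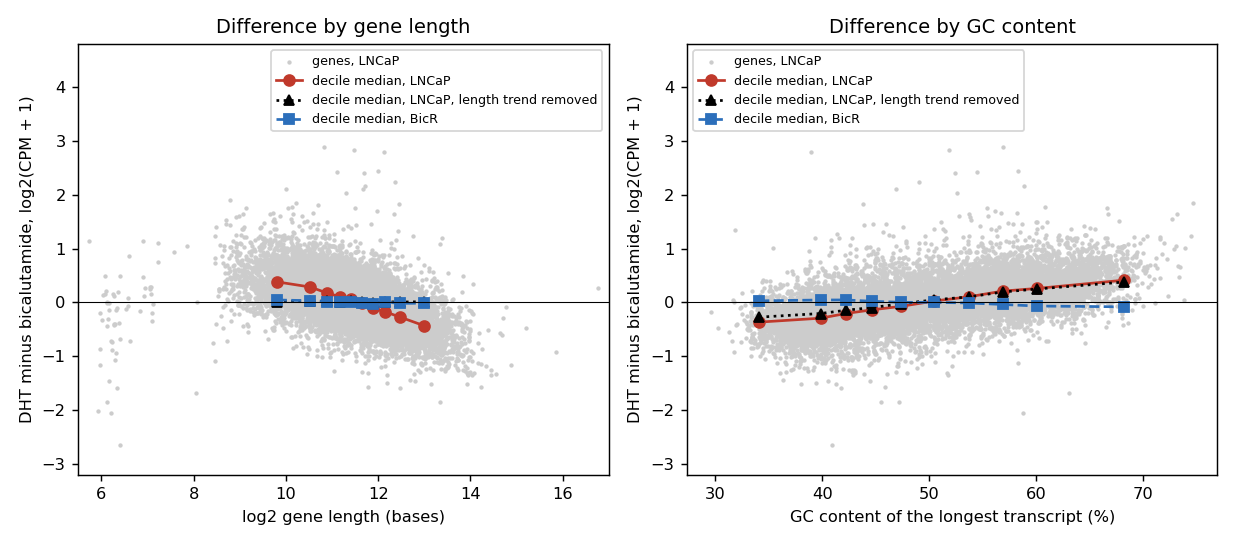
Difference of each gene, DHT minus bicalutamide in LNCaP (grey), against log2 gene length (left) and GC content of the longest transcript in percent (right), with medians of each decile for LNCaP (red), LNCaP after the length trend was removed (black) and BicR (blue). LNCaP medians run down from 0.38 to -0.43 with length and up from -0.36 to 0.41 with GC, while BicR stays near 0.

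With a smooth length trend removed, 101 genes were 2-fold higher (0.727%) and 50 were 2-fold lower (0.36%). Both ways, 79 genes were higher and 27 lower. Another 140 higher genes and 97 lower genes passed only without the removal, and 22 and 23 only with it. Of the androgen-induced list, 25 members were 2-fold higher and 0 lower after removal, with a median of 0.65. KLK3 then differed by 2.32, KLK2 by 2.83, TMPRSS2 by 2.45, STEAP4 by 2.96 and PGC by 2.72. FKBP5, with 10628 bases, differed by 1.74 where it had 1.20 without removal. TET2 dropped out of 2-fold at -0.59, and ABCA1 stayed at -1.32. Of the androgen-repressed list 2 members were 2-fold lower after removal, against 5 before, with a median of -0.25.

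Removing GC content together with length, an alternative added after the slope on GC was seen, left 63 genes higher and 24 lower among the 11988 (0.526% and 0.2%), where 190 and 108 had passed without removal. The androgen-induced list then had 27 of 85 members 2-fold higher and a median of 0.60. The androgen-repressed list had 1 of 41 members 2-fold lower and a median of -0.28. The median of the glucocorticoid-shared targets was 0.56 with length removed and 0.28 with both removed, with 3 members 2-fold higher each time, and 0.36 in BicR. That of the luminal genes was 0.35 with length removed and 0.21 with both removed, with 8 and 6 members 2-fold higher. The androgen-induced median lay between 0.57 and 0.65 in all 3 forms of the comparison, and that of all genes between -0.01 and 0.02. Genes past 2-fold in all 3 forms numbered 39 higher and 13 lower.

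Overlap with the second line changed with these steps. Of the genes with a GC value, 32 of 190 higher genes (16.8%) were also 2-fold higher in BicR without removal, 36 of 88 (40.9%) with length removed and 40 of 63 (63.5%) with both removed. The BicR comparison uses different libraries and called 198 higher genes (1.43%) and 144 lower (1.04%) of all tested. Among the 39 genes higher in all 3 forms, 28 were also 2-fold higher in BicR. They include KLK3, KLK2, KLK15, TMPRSS2, SLC45A3, FKBP5, PMEPA1, ZBTB16, CENPN, TRPM8, CHRNA2, PGC, STEAP4, GREB1, MAF and SNAI2. The other 11 were DDTL, MT2A, NME2, RPL13AP3, RPL37A, RPS19, S100P, SLC39A4, TMEFF2, TMSB10 and TXNIP.

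On the lower side the overlap did not grow in this way. Of the lower genes with a GC value, 11 of 108 (10.2%) were also 2-fold lower in BicR without removal, 6 of 41 (14.6%) with length removed and 1 of 24 (4.17%), ABCA1, with both removed. The 11 were UNC13C, PLD1, SYTL2, MAN1A1, NIPSNAP3B, LRRN1, ATP2B1, AHNAK2, DGKH, MMP16 and ABCA1. On the higher side, TXNIP, a thioredoxin-binding protein, had 14177 counts under DHT and 4999 under bicalutamide, a difference of 1.44, and -0.21 in BicR. MIF, a cytokine-like tautomerase, had 26942 counts under DHT and 7671 under bicalutamide, a difference of 1.75 that became 0.96 with both trends removed.

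**Figure D3:**
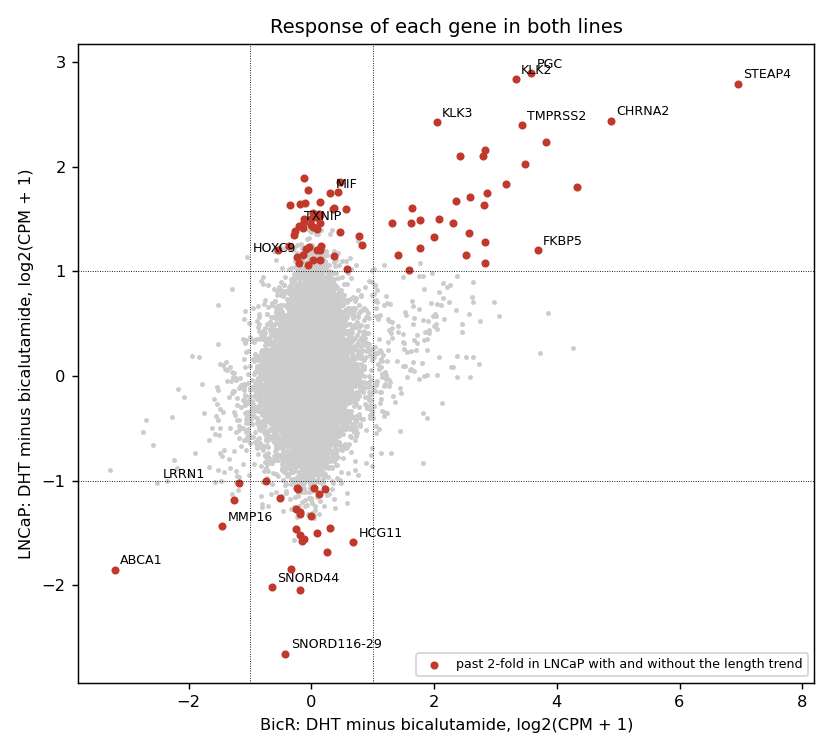
Difference of each gene, DHT minus bicalutamide on the log2(CPM + 1) scale, in LNCaP (vertical axis) against BicR (horizontal axis). Dotted lines mark 2-fold, and red points the 79 higher and 27 lower genes past it in LNCaP with and without the length trend. Red points on the higher side split into a group with large BicR differences, such as KLK2 and CHRNA2, and a group near 0 in BicR, such as MIF and TXNIP.

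The 4 libraries of both lines allowed a test of the treatment difference taken over both lines together. edgeR's quasi-likelihood test with an additive model of line and treatment called 126 genes higher (0.907%) and 61 lower (0.439%) at an adjusted p of 0.05, of which 124 and 61 had the same sign in both lines. The fit had 1 residual degree of freedom, and every gene received a spread shared with genes of like abundance. Its p-values therefore lean on that shared spread, and a call did not require a response of like size in both lines. SNORD41 was among the genes called lower, with differences of -1.85 in LNCaP and -0.33 in BicR. KLK2 rose by 3.09 on the log2 scale (SE 0.30, edgeR adjusted p = 4.11e-21), KLK3 by 2.24 (SE 0.30, edgeR adjusted p = 3.16e-11) and TMPRSS2 by 2.93 (SE 0.30, edgeR adjusted p = 9.41e-20). ABCA1 fell by 2.73 (SE 0.30, edgeR adjusted p = 2.33e-17) and MMP16 by 1.45 (SE 0.27, edgeR adjusted p = 2.78e-05). Of the androgen-induced list 57 of 88 rose and 0 fell, and of the androgen-repressed list 14 of 42 fell and 1, UGT2B11, rose. The lists were drawn up with earlier results of these data known, so these counts are not independent evidence of their direction.

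A fit over all 6 libraries, in which the ethanol libraries add a residual degree of freedom, called 23 genes higher and 0 lower with edgeR, and 483 and 504 at an unadjusted p under 0.05. All 23 were among the 126. They include KLK3, with an edgeR adjusted p of 0.0173, KLK2, KLK4, KLK15, TMPRSS2, SLC45A3, PMEPA1, STEAP4, TRPM8, CHRNA2, PGC and ST6GALNAC1. FKBP5 missed it at an edgeR adjusted p of 0.225 and ABCA1 at 0.153. DESeq2 on the 4 libraries called 67 higher and 30 lower, and limma 139 and 78. Without the LNCaP bicalutamide library the 6-library fit called 0 genes in either direction, with 227 and 177 at an unadjusted p under 0.05, and without the BicR bicalutamide library also 0, with 873 and 696. Without the LNCaP DHT library it called 135 higher and 62 lower, and without the BicR DHT library 18 higher and 0 lower, with 796 and 678 at an unadjusted p under 0.05.

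Ribosomal protein genes were higher under DHT as a class. Of 81 tested, 77 lay above 0 and 18 were 2-fold higher, against 1.58% of all genes tested. The median was 0.75, and the class took 6.33% of counts under DHT and 3.91% under bicalutamide. RPS19 had 15228 counts under DHT and 4581 under bicalutamide. The class has a median length of 740 bases, and its median was 0.38 with length removed and 0.44 with both trends removed, 5 members being 2-fold higher each time. In BicR the median was 0.07, and BicR libraries had 3.81 to 4.04% of counts in the class, against 5.73% in LNCaP ethanol. Ribosomal protein genes have many pseudogene copies, which makes single values uncertain.

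Nuclear-encoded oxidative phosphorylation genes were of the same kind. Of 85 tested, 75 lay above 0 and 10 were 2-fold higher, against 1.58% of all genes tested. The median was 0.43, which was 0.15 with length removed and 0.02 in BicR. NDUFB11, a complex I subunit, had 13002 counts under DHT and 4375 under bicalutamide. Histones, 35 tested, had a median of 0.44 that was 0.05 with length removed and -0.00 with both removed. The medians of both classes shrank to under 0.2 when length was removed. That of the androgen-induced list, drawn up with earlier results known, was 0.65.

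**Figure D4:**
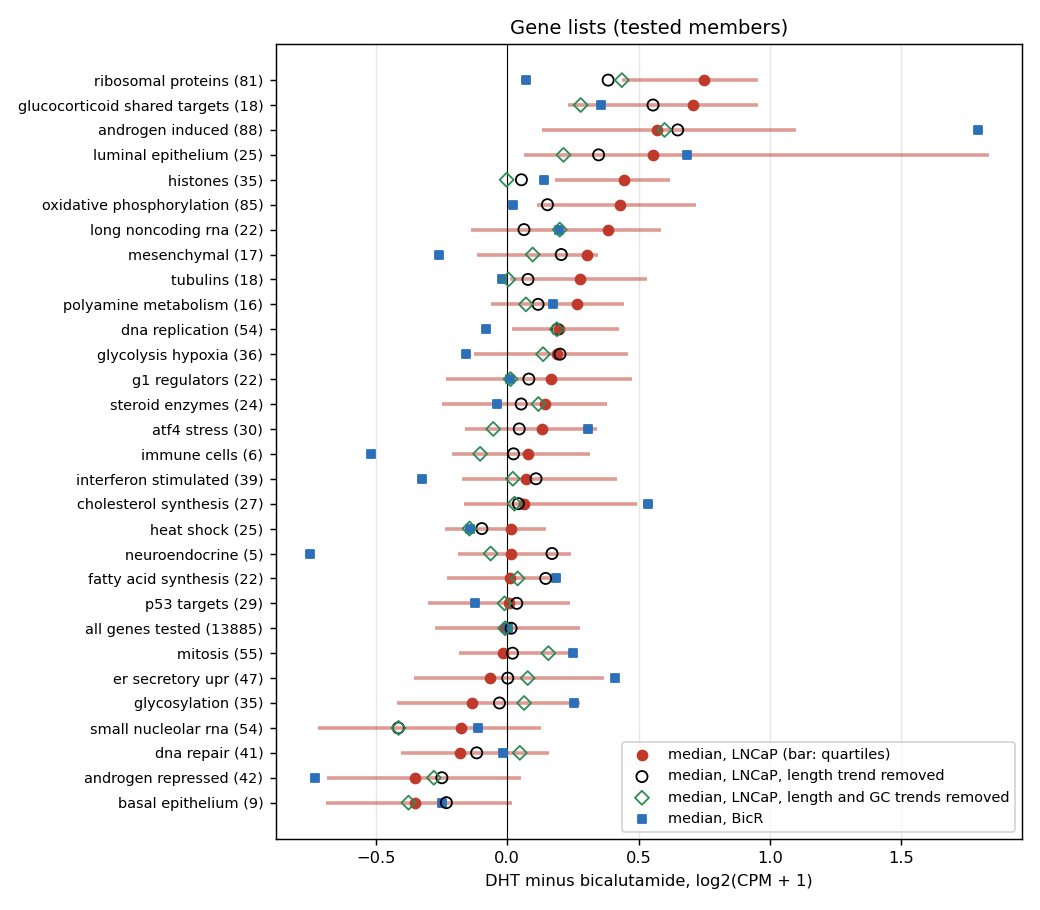
Median difference, DHT minus bicalutamide on the log2(CPM + 1) scale, of gene lists with at least 5 tested members (number in parentheses) in LNCaP (red, bar for the quartiles), in LNCaP with the length trend removed (open circles), with length and GC trends removed (green diamonds, not drawn for oxidative phosphorylation, where only 66 of 85 genes had a GC value), and in BicR (blue squares). The androgen-induced median lies at 0.57, 0.65, 0.60 and 1.79 in these, while ribosomal protein genes lie at 0.75, 0.38, 0.44 and 0.07.

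Small nucleolar RNAs, many of which guide chemical modification of ribosomal RNA, went against the length slope. They are the shortest genes in the table, with a median of 80.5 bases. Even so, 9 of 54 were 2-fold lower under DHT, against 0.893% of all genes tested. On the other side 1, SNORA6, was 2-fold higher, where 1.58% of all genes tested were. The median difference was -0.17. SNORD116-29 had 26 counts under DHT and 434 under bicalutamide, a ratio of 0.0576 [0.0372 to 0.0855], and the lowest difference of any gene, -2.66. SNORD44 had 215 counts under DHT and 997 under bicalutamide. SNORD41 had 142 under DHT and 626 under bicalutamide, and SNORD57 had 78 under DHT and 298 under bicalutamide. All 4 were lower under DHT by a wide margin over counting error. In LNCaP ethanol SNORD116-29, SNORD41 and SNORD57 had 25, 112 and 50 counts, nearer to the DHT library than to the bicalutamide library, and in BicR the differences of all 4 ran from -0.65 to -0.25.

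The sequences of 3 of them are shown because they are among the members 2-fold lower and because each is a box C/D RNA whose boxes can be read off. They come from GENCODE 29 transcripts (GRCh38), written as DNA, with the C box TGATGA and the D box CTGA in capitals.
SNORD116-29: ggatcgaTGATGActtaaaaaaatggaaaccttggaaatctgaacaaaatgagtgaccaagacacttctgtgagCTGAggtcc
SNORD41: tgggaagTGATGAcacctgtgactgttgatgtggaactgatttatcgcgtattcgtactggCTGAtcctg
SNORD57: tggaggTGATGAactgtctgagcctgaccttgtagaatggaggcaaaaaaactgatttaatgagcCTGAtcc
SNORD116-29 lies at chr15:25106521-25106603 on the plus strand inside the noncoding SNHG14. SNORD41 lies at chr19:12706449-12706518, minus strand, in TNPO2, and SNORD57 at chr20:2656939-2657010, plus strand, in NOP56. The hosts with a value did not follow their guests, and SNHG14 was not among the genes tested. TNPO2 differed by 0.09 and NOP56 by 0.11, and GAS5, the host of SNORD44 and SNORD79, by 0.34. RMRP, the RNA of a ribosomal RNA processing ribonuclease, was lower in LNCaP as well, at 33 counts under DHT and 217 under bicalutamide. The LNCaP ethanol library had 14 counts. In BicR it had 129 counts under DHT and 118 under bicalutamide, a difference of 0.26. Whether counting used strand is not given in the sources used here, so reads of a host intron cannot be told apart from those of its guest.

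**Figure D5:**
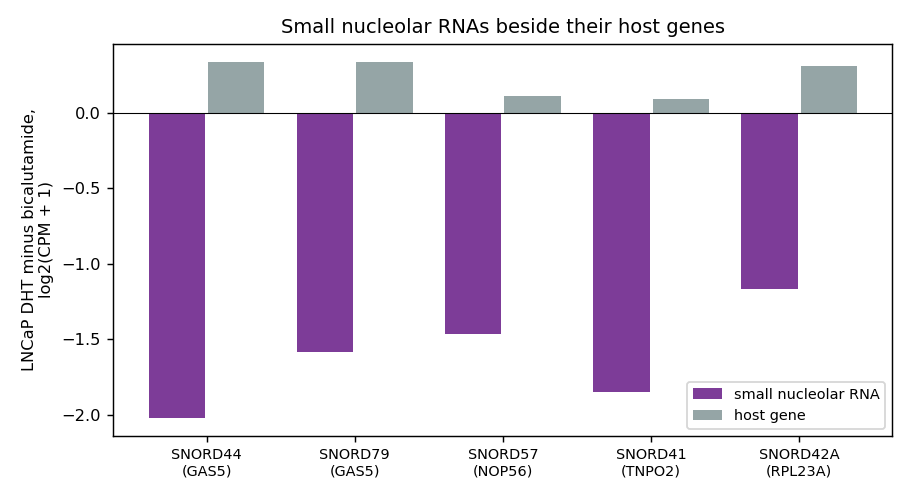
Difference in LNCaP, DHT minus bicalutamide on the log2(CPM + 1) scale, for 5 small nucleolar RNAs (purple) beside the gene that hosts each (grey, named in parentheses), 1 library per treatment. All 5 small nucleolar RNAs lie between -2.02 and -1.16, while their hosts lie between 0.09 and 0.34.

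For most genes past 2-fold the LNCaP vehicle library lay between the treatments. Of the 219 higher genes, ethanol lay between DHT and bicalutamide for 177, above DHT for 17 and below bicalutamide for 25. Of the 124 lower genes it lay between for 110, below DHT for 8 and above bicalutamide for 6. These genes were picked for their gap between DHT and bicalutamide, which by itself favours another library falling in between. The share over all genes tested was not taken, so no conclusion about either treatment against vehicle is drawn from these counts. For KLK3 the ethanol level was 1402 CPM, against 5259 CPM under DHT and 979.5 CPM under bicalutamide. HSPA5, a chaperone of the endoplasmic reticulum, took 0.131% of counts under DHT and 0.147% under bicalutamide but 0.790% in LNCaP ethanol, so comparing DHT with bicalutamide leaves that departure of the ethanol library aside. Endoplasmic reticulum genes as a list had a median of -0.06, and mitosis genes -0.02, while the DHT and bicalutamide libraries stood 1.43 and 1.45 above ethanol for mitosis genes at the median.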

How the data were processed

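Expression was read from 1 deposited table of raw counts per gene symbol, with RPKM made by the authors beside them, per the file headers. Reads came from a SOLiD 3 Plus instrument, per the labels' protocols, and the build named in the submitters' processing notes is hg19. Aligner, counter, annotation and strandedness are not stated in those sources. The authors' deposited RPKM served as an alternative scale and to recover whole-base gene lengths.

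The gene filter and TMM scaling (edgeR 4.0.16 under R 4.3.3) used all 6 libraries, and genes averaging 20 or more counts were kept. Differences used log2(CPM + 1). Length, and length with GC content, were removed by loess (span 0.75, degree 1). The floor was 3 counts. Both-line tests used edgeR's quasi-likelihood test, 2-sided, Benjamini-Hochberg adjusted over all 13885 genes at 0.05, with DESeq2 1.42.0 and limma 3.58.1 as alternatives. The 4-library residual is the difference between the lines in treatment response, and its spread was pooled over genes of like abundance. The p-values rest on these 4 or 6 libraries alone and hold no spread between repeat libraries of a treatment within a line. The length-trend removal and the 4-library edgeR test were tried on simulated data that held no slope on GC content. Removal of GC content, the 6-library fit, DESeq2 and limma were not tried in this way. Promoters came from RefSeq and transcripts from GENCODE 29, matched by symbol; no coordinates were converted between builds.

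The comparison, members and gene lists were chosen with earlier results of these data known. Genes were named by rule: the 10 highest and 10 lowest differences past 2-fold with and without the length trend, the 6 highest and 6 lowest in the both-line test, the 2 highest and 2 lowest of each list, and 20 fixed genes. Genes named outside it (among them members shared between lines or settings, promoter matches, host genes, neighbours and SRD5A1) were chosen after their values were seen. Some genes and sequences are not reported here.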

Additional observations from a re-analysis of the deposited data

Results flagged for a closer look

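HOXC9, a homeobox transcription factor gene, differed in opposite directions in the lines. In LNCaP it had 1262 counts under DHT and 525 under bicalutamide, a difference of 1.13, and in BicR 175 under DHT and 476 under bicalutamide, a difference of -1.05. With the length trend removed the LNCaP value was 0.90. It was the only gene of 13885 past 2-fold in opposite directions, and the difference between the lines was not tested, since each rests on 1 library per treatment.

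The 17 tested mesenchymal genes had a median difference of 0.30 in LNCaP and -0.26 in BicR, also not tested. With length removed the LNCaP median was 0.21, and with length and GC removed 0.10. SNAI2, a zinc finger repressor, was the highest member in LNCaP at 118 counts under DHT and 16 under bicalutamide, and was higher in BicR too, at 590 under DHT and 55 under bicalutamide.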

How the results depend on the processing

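Against 219 higher and 124 lower genes, removing the length trend gave 101 and 50, length and GC together 63 and 24 (over genes with a GC value; added after seeing the data), a pseudocount of 0.1 gave 349 and 248, a pseudocount of 5 gave 124 and 61, and the deposited RPKM 136 and 66. DESeq2 size factors, total counts, no filter, a mean of 100 counts and the 2 libraries alone (the last added after seeing the data) gave 158 to 220 higher and 120 to 185 lower. Of called genes, 63.8% were higher, 46.1% under total counts. Against 126 higher and 61 lower genes in the both-line test, all 6 libraries gave 23 and 0 and DESeq2 67 and 30, while no filter, a mean of 100 counts and limma gave 100 to 140 and 54 to 78. Leaving out 1 library at a time from the 6-library fit gave 0 to 135 higher and 0 to 62 lower. Of the list medians, 207 values moved by less than the counting interval and 62 by more, and 1 median at least 0.2 from 0 changed sign, the histones at -0.0016 with length and GC removed. Counting medians nearer to 0 as well, 4 of 31 changed sign with length removed and 10 with both removed, among them DNA repair (0.05, against -0.18 without removal) and glycosylation (0.06, against -0.13). Among named genes 928 values moved by less and 424 by more, and 0 past 2-fold changed sign.

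With 1 library per treatment, culture and library differences cannot be told apart from treatment. Counting intervals hold no variation between cultures. At a floor of 0.0553 CPM under DHT and 0.0575 CPM under bicalutamide, absence of low genes was not detectable. No paired analysis was possible because, within LNCaP, each treatment held 1 library. The both-line fit compared DHT with bicalutamide within each line through its line term.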

Other observations

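DNA replication genes lay slightly above 0 in LNCaP, with 44 of 54 higher under DHT and a median of 0.20, which was 0.19 with length removed and 0.19 with both trends removed, against -0.08 in BicR. TK1, thymidine kinase, had 3559 counts under DHT and 1558 under bicalutamide, and CDT1, a replication licensing factor, 719 under DHT and 299 under bicalutamide. DNA repair genes had a median of -0.18, led by the long gene PRKDC, a DNA-dependent kinase, with 16609 counts under DHT and 33697 under bicalutamide; their median was -0.12 with length removed and 0.05 with both removed.

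Among steroid enzymes, 1 of 24 was 2-fold higher, where 1.58% of all genes tested were, and 0 with length removed. It was HSD17B8, with 4006 counts under DHT and 1688 under bicalutamide, a difference of 1.17 that was 0.81 with length removed. SRD5A1, a 5-alpha reductase that makes DHT from testosterone, had 3475 under DHT and 2038 under bicalutamide. Their differences in BicR were -0.05 and -0.07. Of the 24 steroid enzymes, 14 lay above 0 in LNCaP and 10 below, the lowest being AKR1C1 at -0.60 and AKR1C3 at -0.55. The long noncoding RNA MALAT1 had 66849 counts under DHT and 111799 under bicalutamide, a difference of -0.80 that was -0.34 with length removed and -0.25 with both removed.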
